A study of Homo sapiens with 6 samples.

Results

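The glycolysis, PFKFB and pyruvate entry genes are 30 genes that carry glucose into the cell, break it down to pyruvate and lactate, set the rate of the pathway or admit pyruvate to the mitochondrion. They were chosen by symbol, from what their products do, out of the 30245 genes with a read count in H460 cells. The rule used no measured value, but the choice was made with earlier results of these data known. All 30 had enough counts to be tested. H460 is a human line established from a large cell carcinoma of the lung, labelled as wild type for this study, and all libraries come from this one line. Cells of both groups were grown for 24 h in RPMI medium with fetal bovine serum. They were then kept for 24 h as control cells (3 libraries) or with 20 µM fluoxetine, a selective serotonin reuptake inhibitor used as an antidepressant (3 libraries). The labels do not say what the control cells received or whether the libraries of a group came from separate cultures, so p-values measure only the spread between these libraries. Control replicate 3 stood apart from the other control libraries, and results that rest on it are also given without it. The comparison asked how the transcriptome of fluoxetine-treated cells differed from that of control cells.

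Glycolysis converts glucose to pyruvate in the cytosol, and most of its steps can be run by more than one isozyme, encoded by separate genes with different tissue patterns. The PFKFB enzymes make and remove a sugar bisphosphate that activates phosphofructokinase, the committed step. Pyruvate is either reduced to lactate, which leaves the cell through monocarboxylate transporters, or oxidised by the pyruvate dehydrogenase complex, which the PDK kinases switch off. Many tumour cells take up much glucose and release lactate even with oxygen present, and several genes of the pathway are known targets of hypoxia-inducible factors and MYC.

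Fluoxetine-treated cells had more RNA of 6 members, PFKFB2, ALDOC, PFKFB4, ENO2, SLC2A3 and PDK1, with rises of 1.5-fold to 3.87-fold. They had slightly less of 4 others, TPI1, HK2, LDHA and PGAM1, at 0.790 to 0.847 times the control level. The other 20 members did not pass the test (quasi-likelihood F-test of edgeR, p-values adjusted by the Benjamini-Hochberg method over 14674 genes, adjusted p under 0.05). Of all genes tested, 8.32% were called up and 6.52% down, 14.8% in all. With a fold change of at least 2 as a further condition, 3 members were up, against 1.33% of all genes, and 0 were down, against 0.170% of all genes. At an unadjusted p under 0.05, 7 members were higher and 6 were lower, where 16.3% of all genes were higher and 14.4% lower. DESeq2 and limma-voom called the same numbers as edgeR, 6 up and 4 down. The median log2 fold change of the 30 members was -0.07, beside 0.01 over all genes tested, and 12 members were higher and 18 lower. In 15 members the libraries of the groups did not overlap in level, which held for 33.7% of all genes.

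**Figure D1:**
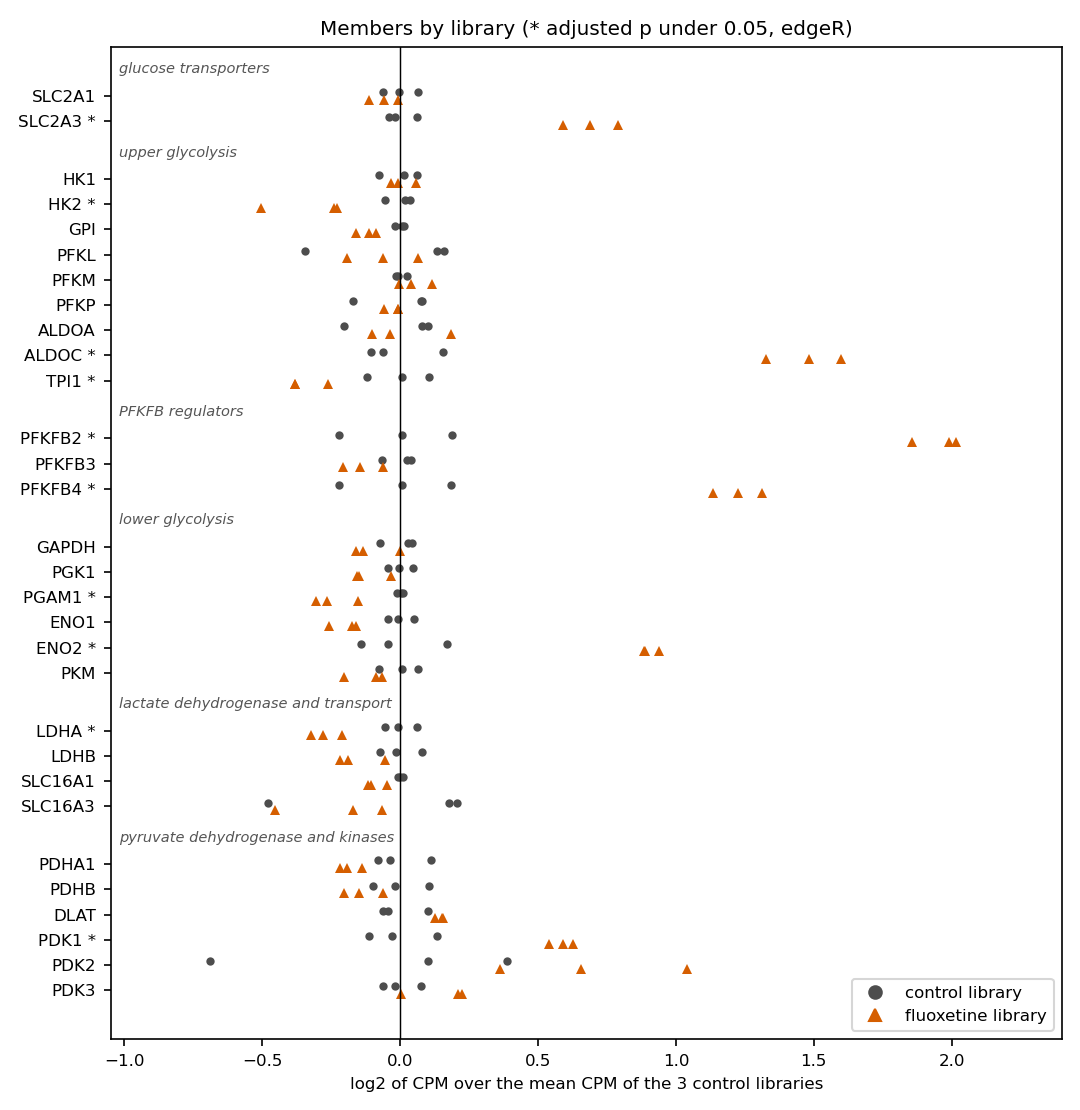
Level of each of the 30 members in each library, as log2 of its CPM (counts scaled to library size with TMM factors) over the mean of the 3 control libraries, with members ordered by role, grey circles for control libraries and orange triangles for fluoxetine libraries. The fluoxetine libraries of PFKFB2, ALDOC, PFKFB4, ENO2, SLC2A3 and PDK1 lie to the right of all control libraries, and those of TPI1, HK2, LDHA and PGAM1 lie closer to the control libraries, on the left.

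The 6 rises and the 4 falls differed in how they stood up to leaving out a library. The 6 rises passed the test in each of the 16 alternative fits. None of the 4 falls passed it once control replicate 1, control replicate 2, fluoxetine replicate 1 or fluoxetine replicate 3 was left out, although each kept its direction in all fits. Over all genes, the number of calls also fell from 2178 to between 613 and 1186 without one of these libraries. Without control replicate 3 it rose to 3766, and 6 members were then called down, with ENO1 (-0.22 on the log2 scale) and SLC16A3 (-0.41) added to the 4.

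The libraries held 15999067 to 27571727 counts, each fluoxetine library fewer than each control library, and 3 counts, the limit that a count of 0 allows, were worth 0.109 to 0.188 CPM. Members took 2.06% to 2.22% of the counts in control and 1.97% to 2.11% in fluoxetine libraries, and mitochondrial genes took 8.21% to 8.97%. Control replicate 3 stood apart from the other control libraries. The chi-square of its counts over genes, divided by the degrees of freedom, was 23.0 and 13.0 against them. Control replicates 1 and 2 differed from each other by 5.89. On this measure, fluoxetine libraries differed from each other by 3.59 to 10.7, and libraries of different groups by 21.9 to 48.8. The labelled carcinoma cells had high KRT8, KRT18 and KRT19, keratins of simple epithelia, and the 6 epithelial markers summed to 3109 to 4067 CPM in control and 2725 to 3255 CPM in fluoxetine libraries. EPCAM and CDH1, epithelial adhesion genes, were at or under 0.575 CPM, and the 3 measured markers of lung lineage summed to at most 0.696 CPM. The 5 fibroblast markers summed to 13.1 to 14.4 CPM in control and 16.4 to 17.5 CPM in fluoxetine libraries, with COL1A2 at or under 0.122 CPM. Of the markers of all 6 lists, only KRT7, KRT8, KRT18, KRT19, CHGA, SYP, COL1A1, LUM and PDGFRB had enough counts to be tested. KRT18 and LUM passed the test, as 14.8% of all genes did. KRT18 was at a log2 difference of -0.72 ± 0.10 and LUM, a fibroblast matrix gene, at 0.87 ± 0.15. The 4 neuroendocrine markers summed to 46.2 to 68.1 CPM in control and 45.5 to 59.8 CPM in fluoxetine libraries, nearly all of it CHGA. The 2 measured blood markers and the 2 measured endothelial markers summed to at most 0.183 CPM. The part of these markers in the results was not tested. In bulk RNA, fewer cells with a transcript and less transcript per cell cannot be told apart.

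SLC2A1 and SLC2A3 encode the glucose transporters GLUT1 and GLUT3, of which GLUT3 has the higher affinity for glucose. SLC2A3 stood at 101, 102 and 108 CPM in control libraries and at 167, 157 and 179 CPM in fluoxetine libraries. Every fluoxetine library was above every control library, and the difference was 0.69 ± 0.08 on the log2 scale (SE, n = 3 against 3; edgeR adjusted p = 0.000469). SLC2A1 stood at 422, 443 and 407 CPM in control and 392, 421 and 407 CPM in fluoxetine libraries, overlapping groups that did not pass the test (log2 difference -0.06 ± 0.07). On a per-length scale (TPM, counts divided by the length of each gene's principal transcript and scaled to an equal total per library), SLC2A1 was the more abundant of the pair, and SLC2A3 made up 18.7% ± 1.14 (SD, n = 3) of their sum in control and 27.9% ± 1.81 in fluoxetine libraries. SLC2A14, a close copy of SLC2A3 whose reads could be shared with it, was not analysed here.

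Hexokinase, the first step after uptake, traps glucose as its phosphate. HK2, the isozyme typical of muscle and many tumours, stood at 81.6, 85.8 and 86.8 CPM in control and 71.7, 59.8 and 72.3 CPM in fluoxetine libraries. All fluoxetine libraries were below all control libraries, fluoxetine replicate 2 the furthest, and HK2 fell by 0.32 ± 0.09 on the log2 scale (edgeR adjusted p = 0.0409). HK1, the widely expressed isozyme, was at 185 ± 8.81 CPM (SD, n = 3) in control and 185 ± 5.93 CPM in fluoxetine libraries. The share of HK2 in the sum of both, per length, was 22.3% ± 1.17 in control and 18.6% ± 1.54 in fluoxetine libraries. The HK2 call was also lost without fluoxetine replicate 2 (log2 difference -0.24) and with scaling by library size alone (-0.29).

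The next steps, isomerisation by GPI and phosphorylation by phosphofructokinase, had no called member. GPI was at 443 ± 5.24 CPM in control and 408 ± 10.2 CPM in fluoxetine libraries, which did not overlap, yet the log2 difference of -0.12 ± 0.06 did not pass the test (edgeR adjusted p = 0.226). PFKL, the liver type of phosphofructokinase, was at 188, 185 and 133 CPM in control and 161, 176 and 147 CPM in fluoxetine libraries, so that control replicate 3 was the lowest of all 6 (log2 difference -0.06 ± 0.13, and -0.21 without that library, where it did not pass the test either). PFKP, the platelet type, had the same order in control libraries, at 312, 311 and 262 CPM, and fluoxetine libraries lay between these at 283 to 294 CPM. PFKM, the muscle type, was at 205 ± 3.17 CPM in control and 213 ± 9.19 CPM in fluoxetine libraries. PFKM shares 628 exonic bases with SENP1 on the opposite strand, which was at 48.6 ± 4.08 CPM in control and 44.0 ± 0.853 CPM in fluoxetine libraries. Per length, PFKP had the largest share of the 3 genes, at 47.7% ± 0.450 in control and 47.3% ± 0.345 in fluoxetine libraries.

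The PFKFB regulators held the largest rise among the members. PFKFB2, the form known from heart and a substrate of AKT, stood at 8.11, 9.51 and 10.8 CPM in control and 37.6, 34.3 and 38.2 CPM in fluoxetine libraries. The groups lay far apart, and the rise was 3.87-fold, or 1.95 ± 0.12 on the log2 scale (edgeR adjusted p = 1.05e-05). PFKFB4, a form known from testis and from hypoxic tumours, stood at 4.21, 5.59 and 4.94 CPM in control and 10.8, 11.5 and 12.2 CPM in fluoxetine libraries, again without overlap. It rose 2.34-fold, or 1.23 ± 0.14 on the log2 scale (edgeR adjusted p = 0.000549).

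PFKFB3, the inducible form with the strongest kinase activity, did not follow them. It stood at 38.9, 41.4 and 41.9 CPM in control and 36.9, 35.3 and 39.0 CPM in fluoxetine libraries, overlapping groups with a log2 difference of -0.14 ± 0.09 (edgeR adjusted p = 0.313). Per length, PFKFB3 made up 77.1% ± 1.56 of the summed PFKFB level in control and 49.7% ± 0.162 in fluoxetine libraries. PFKFB2 went from 11.3% ± 1.02 to 31.1% ± 0.877, and PFKFB4 from 11.6% ± 1.12 to 19.3% ± 0.984. PFKFB2 (chr1:207034366-207081024, plus strand, GRCh38) shares 315 exonic bases with YOD1 on the opposite strand. Whether the counting used the strand is not given in the sources used here. YOD1 was at 41.7 ± 5.61 CPM in control and 41.0 ± 0.709 CPM in fluoxetine libraries, and the part of shared reads in the PFKFB2 value was not tested. PFKFB4 (chr3:48517684-48562015, minus strand) shares 289 exonic bases with UCN2, which had a mean of 1 count per library.

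**Figure D2:**
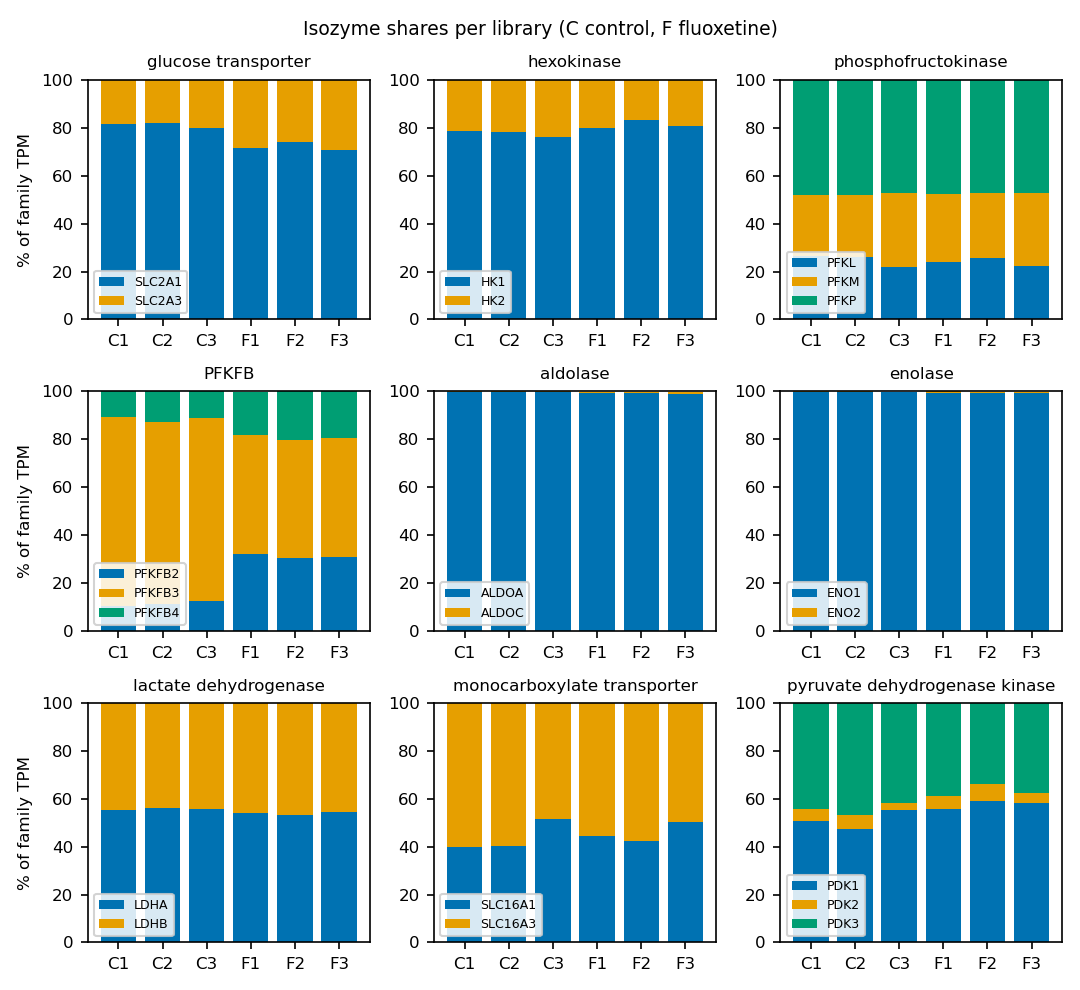
Share of each isozyme in the summed TPM of its family, in percent, one bar per library (C1 to C3 control, F1 to F3 fluoxetine), for 9 families. Only members are counted in a family, so PDK4 is not in the kinase panel. The PFKFB panel moves the furthest, from a PFKFB3 share of 77.1% to one of 49.7%, while ALDOC and ENO2 stay slivers of their families.

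Aldolase splits the sugar bisphosphate into trioses, and triose phosphate isomerase (TPI1) makes both trioses usable. ALDOC, the aldolase of brain, stood at 7.14, 8.57 and 7.36 CPM in control and 21.5, 19.3 and 23.3 CPM in fluoxetine libraries. The groups did not overlap, and ALDOC rose 2.78-fold, by 1.48 ± 0.12 on the log2 scale (edgeR adjusted p = 6.57e-05). ALDOA, the aldolase of muscle and most cells, was far more abundant, at 2315, 2351 and 1901 CPM in control and 2133, 2487 and 2040 CPM in fluoxetine libraries. Its groups overlapped (log2 difference 0.02 ± 0.10, and -0.072 without control replicate 3), and ALDOC went from 0.285% ± 0.0325 to 0.782% ± 0.148 of the summed aldolase level per length. With the merged length of all exons these shares were 0.470% and 1.29%. TPI1 stood at 896, 838 and 768 CPM in control and 641, 696 and 640 CPM in fluoxetine libraries. Every fluoxetine library was below every control library, and TPI1 fell by 0.34 ± 0.08 on the log2 scale (edgeR adjusted p = 0.0177).

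Of the lower steps from GAPDH to pyruvate kinase, ENO2 rose and PGAM1 fell. ENO2, the neuronal enolase, stood at 14.9, 12 and 12.9 CPM in control and 24.5, 25.4 and 24.5 CPM in fluoxetine libraries. The fluoxetine libraries were close to each other and above all control libraries, by 0.90 ± 0.11 on the log2 scale (edgeR adjusted p = 0.000805). ENO1, the enolase of most cells, was at 3728, 3580 and 3493 CPM in control and 3013, 3219 and 3192 CPM in fluoxetine libraries, a difference in the opposite direction without overlap. It was -0.20 ± 0.07 on the log2 scale and just missed the threshold (edgeR adjusted p = 0.0728). ENO2 went from 0.304% ± 0.0267 to 0.651% ± 0.0179 of the summed enolase level per length.

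PGAM1, phosphoglycerate mutase, stood at 533, 536 and 528 CPM in control and 431, 479 and 442 CPM in fluoxetine libraries. The control libraries were nearly equal and all above the fluoxetine libraries, and PGAM1 fell by 0.24 ± 0.07 on the log2 scale (edgeR adjusted p = 0.0401). The PGAM1 call was also lost with library size alone (-0.21), after thinning to equal depth (-0.22) and with all deposited rows kept (-0.23). GAPDH, the most abundant member per length, was at 4065 ± 174 CPM in control and 3801 ± 232 CPM in fluoxetine libraries. PGK1, phosphoglycerate kinase, and PKM, pyruvate kinase, also had slightly lower means in fluoxetine libraries, by 0.11 ± 0.07 and 0.12 ± 0.07 on the log2 scale, and neither passed the test.

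Lactate dehydrogenase interconverts pyruvate and lactate. LDHA, whose tetramer favours lactate formation, stood at 2057, 1899 and 1962 CPM in control and 1579, 1705 and 1625 CPM in fluoxetine libraries. The groups were apart, and LDHA fell by 0.27 ± 0.07 on the log2 scale (edgeR adjusted p = 0.0261). LDHB, whose tetramer is typical of heart, stood at 1051, 946 and 984 CPM in control and 854, 956 and 871 CPM in fluoxetine libraries, overlapping groups with a log2 difference of -0.15 ± 0.07 (edgeR adjusted p = 0.192). LDHA made up 55.8% ± 0.325 of the pair per length in control and 53.8% ± 0.592 in fluoxetine libraries. With the merged length of all exons of a gene in place of the principal transcript, the LDHA share was 48.8% and 46.8%, so which of the pair is the more abundant depends on the length used.

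SLC16A1 and SLC16A3 encode the monocarboxylate transporters MCT1 and MCT4. SLC16A1 was at 129 ± 0.741 CPM in control and 121 ± 3.20 CPM in fluoxetine libraries, without overlap but with a log2 difference of only -0.09 ± 0.07. SLC16A3 was at 215, 210 and 134 CPM in control and 165, 178 and 136 CPM in fluoxetine libraries, so the comparison turned on control replicate 3, the lowest of all 6. Its log2 difference was -0.22 ± 0.17 with that library (edgeR adjusted p = 0.411) and -0.41 ± 0.10 without it (edgeR adjusted p = 0.0109). SLC16A3 shares 482 exonic bases with CSNK1D on the opposite strand, which was at 96.5 ± 3.69 CPM in control and 99.7 ± 4.54 CPM in fluoxetine libraries.

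The pyruvate dehydrogenase complex is represented by PDHA1 and PDHB, the subunits of its decarboxylase, and DLAT, its acetyltransferase. None of the 3 passed the test. PDHA1 was at 288, 252 and 259 CPM in control and 233, 242 and 229 CPM in fluoxetine libraries, a log2 difference of -0.18 ± 0.07 (edgeR adjusted p = 0.122). DLAT pointed the other way, at 136 ± 8.65 CPM in control and 150 ± 1.61 CPM in fluoxetine libraries (log2 difference 0.14 ± 0.07, edgeR adjusted p = 0.213).

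Among the kinases that inactivate the complex, PDK1 stood at 56.2, 53.1 and 62.9 CPM in control and 83.5, 86.4 and 88.7 CPM in fluoxetine libraries. All fluoxetine libraries were above all control libraries, and PDK1 rose 1.5-fold, by 0.59 ± 0.09 on the log2 scale (edgeR adjusted p = 0.00229). PDK2 was the member with the fewest counts, at 1.33, 1.62 and 0.769 CPM in control and 1.95, 2.55 and 1.59 CPM in fluoxetine libraries. These overlap, and the log2 difference of 0.74 ± 0.31, larger than that of PDK1, did not pass the test (edgeR adjusted p = 0.140). PDK3 was at 6.69 ± 0.331 CPM in control and 7.41 ± 0.618 CPM in fluoxetine libraries, with a log2 difference of 0.15 ± 0.13. PDK1 made up 51.3% ± 4.02 of the 3 kinases per length in control and 57.7% ± 1.60 in fluoxetine libraries, or 70.9% and 75.6% with the length of all exons. PDK4, which is not a member, was left out of this sum. It was at 8.62 ± 1.06 TPM in control and 18.2 ± 1.01 TPM in fluoxetine libraries. PDK1 was at 8.80 ± 0.975 and 14.1 ± 0.526 TPM. A share with PDK4 included was not computed, so these shares do not describe the whole kinase family.

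The members that rose were low in control cells and those that fell were mostly abundant. Per length, the 6 that rose were at 2.91 to 57.7 TPM in control cells, with a median of 8.62 TPM. The 4 that fell were at 31.9 to 1774 TPM, with a median of 1051 TPM, and the 20 others at 0.780 to 4709 TPM, with a median of 157 TPM. HK2, at 31.9 TPM, was the one that fell from a level below that of SLC2A3, which rose. Standard errors of the log2 difference were 0.08 to 0.14 for the genes that rose and 0.07 to 0.09 for those that fell.

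**Figure D3:**
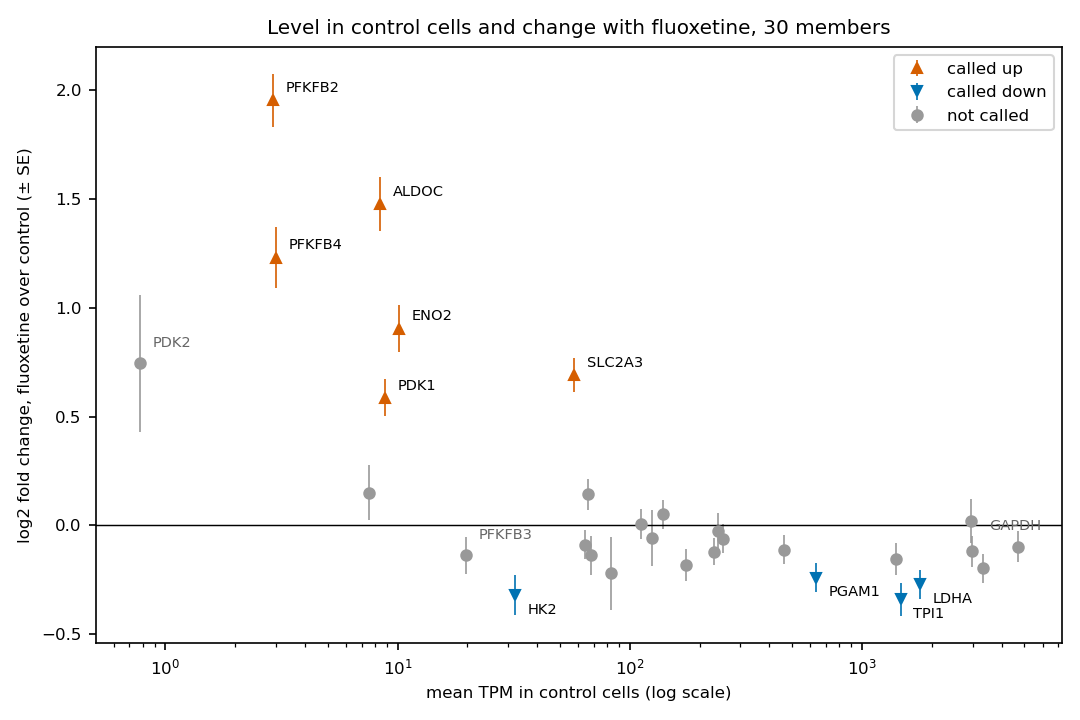
Mean TPM in the 3 control libraries (horizontal, log scale) against the log2 fold change of fluoxetine over control with its SE (vertical) for the 30 members. The 6 called up lie between 2.91 and 57.7 TPM, and 3 of the 4 called down lie at or above 632 TPM with differences no larger than 0.34 in size.

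Isozymes of one step were compared directly by the log2 ratio of their CPM within each library, in which the scaling of the library cancels. Of 12 pairs, 8 had ratios that did not overlap between the groups. No share over all gene pairs was computed to set beside this, while the levels of single genes did not overlap in 33.7% of all genes. The pairs are not independent, since some share PFKFB3, PFKL or PDK1. The ratio of PFKFB2 to PFKFB3 was higher in fluoxetine libraries by 2.099 on the log2 scale, that of ALDOC to ALDOA by 1.45, of PFKFB4 to PFKFB3 by 1.37, of ENO2 to ENO1 by 1.11 and of SLC2A3 to SLC2A1 by 0.75. In each of these pairs the isozyme that was minor in control cells gained on the major one. The ratio of LDHB to LDHA was higher by 0.12. HK2 to HK1 differed by -0.33 and PDK3 to PDK1 by -0.44, so there the minor isozyme of the pair lost on the major one. PDK4, which is not a member, was not paired with PDK1. It rose by 0.99 ± 0.10 on the log2 scale and PDK1 by 0.59 ± 0.09. The other 4 pairs, PFKM and PFKP over PFKL, SLC16A1 over SLC16A3 and PDK2 over PDK1, overlapped between the groups, with differences of 0.03 to 0.16 that changed sign when single libraries were left out. With 3 libraries against 3 the two-sided exact permutation test cannot go below p = 0.1, which all 8 reached (0.15 after adjustment over the 12 pairs), so none passes a threshold of 0.05.

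Windows close to the start of 6 of the members that moved are shown, those of the 8 with a window in which a hypoxia core was found, because several glycolytic genes are known to carry hypoxia-inducible factor and E-box elements close to their start. The windows hold the 250 bases before a RefSeq transcription start (GRCh38.p14) nearest to the start of the gene's principal transcript, written 5′ to 3′ on the gene's strand. They were found for 27 of the 30 members, not for PFKFB2, SLC2A3 and SLC16A1. Capitals mark ACGTG or GCGTG, the core of the hypoxia response element, or its reverse complement. The windows are ALDOC (chr17:28576896-28577145, minus strand), PFKFB4 (chr3:48556804-48557053, minus strand), ENO2 (chr12:6914330-6914579, plus strand) and PDK1 (chr2:172555840-172556089, plus strand), from genes that rose, then HK2 (chr2:74833877-74834126, plus strand) and LDHA (chr11:18394313-18394562, plus strand), from genes that fell. The RefSeq start used lies downstream of the start of the principal transcript by 369 bases for ALDOC, 87 for PFKFB4, 121 for PDK1, 146 for HK2 and 175 for LDHA, so these windows lie in part or whole inside the gene as annotated by GENCODE, and that of ENO2 lies upstream of its principal start, with an offset of -627 bases, but inside the gene as deposited.
ALDOC: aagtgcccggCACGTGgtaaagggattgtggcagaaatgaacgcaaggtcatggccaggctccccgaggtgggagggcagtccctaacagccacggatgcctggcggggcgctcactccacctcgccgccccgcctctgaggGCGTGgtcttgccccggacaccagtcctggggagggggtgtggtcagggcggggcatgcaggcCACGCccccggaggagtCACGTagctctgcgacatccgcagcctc
PFKFB4: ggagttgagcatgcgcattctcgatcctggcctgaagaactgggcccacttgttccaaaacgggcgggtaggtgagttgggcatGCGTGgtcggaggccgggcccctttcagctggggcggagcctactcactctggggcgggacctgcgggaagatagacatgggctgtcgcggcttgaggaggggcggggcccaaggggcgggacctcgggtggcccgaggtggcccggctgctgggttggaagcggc
ENO2: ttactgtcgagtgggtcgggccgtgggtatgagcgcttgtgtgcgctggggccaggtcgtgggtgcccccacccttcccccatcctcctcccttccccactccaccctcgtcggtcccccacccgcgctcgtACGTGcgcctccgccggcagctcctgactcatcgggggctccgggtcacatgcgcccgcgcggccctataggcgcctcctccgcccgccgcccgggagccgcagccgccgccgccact
PDK1: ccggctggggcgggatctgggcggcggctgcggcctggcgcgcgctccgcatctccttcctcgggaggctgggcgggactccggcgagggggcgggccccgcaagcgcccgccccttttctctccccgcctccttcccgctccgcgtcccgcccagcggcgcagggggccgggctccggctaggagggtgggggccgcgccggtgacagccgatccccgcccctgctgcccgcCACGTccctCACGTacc
HK2: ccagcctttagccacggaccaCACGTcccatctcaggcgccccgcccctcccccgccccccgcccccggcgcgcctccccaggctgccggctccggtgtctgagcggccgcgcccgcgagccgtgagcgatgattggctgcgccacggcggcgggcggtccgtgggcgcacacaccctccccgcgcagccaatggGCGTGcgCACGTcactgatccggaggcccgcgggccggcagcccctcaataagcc
LDHA: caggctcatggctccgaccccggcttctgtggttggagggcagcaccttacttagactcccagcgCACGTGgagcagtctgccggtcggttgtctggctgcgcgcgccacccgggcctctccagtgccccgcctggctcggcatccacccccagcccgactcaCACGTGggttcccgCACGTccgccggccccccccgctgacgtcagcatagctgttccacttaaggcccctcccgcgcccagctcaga

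The core was found in the windows of 20 of the 27 members, of all 4 that rose and have a window, and of 2 of the 4 that fell. Of the other 2, the PGAM1 window lies just before a start 1658 bases downstream of its principal one, inside the gene, and the TPI1 window ends at its principal start. The core is short and common, present in 43.2% of the 35116 windows of the reference table. With the window nearest to the outermost start of the gene instead, 16 of 27 members held it, with 3 of those that rose and 2 of those that fell. The E-box CACGTG, which contains the core on both strands, was in 7 of 27 member windows and 6.34% of all windows. Among the genes that moved it was in those of ALDOC and LDHA, which moved in opposite directions. The forkhead motif GTAAACA was in 0 of 27 member windows and 2.98% of all windows. These matches, searched on both strands, are a description of the letters and not of binding.

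Other genes of glucose metabolism were counted in the same fit, in 5 lists of 101 genes, of which 96 were in the table and 79 were tested. Of these, 16 were called up and 7 down, 29.1% in all beside the 14.8% of all genes, with a median log2 fold change of 0.05. The 7 falls dropped to 1 without control replicate 1, fluoxetine replicate 1 or fluoxetine replicate 3. They dropped to 2 without control replicate 2 and increased to 12 without control replicate 3. Of all genes, 6.52% were called down with all libraries, 2.94% without control replicate 1 and 2.22% without control replicate 2. The share was 0.943% without fluoxetine replicate 1, 1.69% without fluoxetine replicate 3 and 12.1% without control replicate 3. The rises of these lists dropped from 16 to 9 without fluoxetine replicate 1, where those over all genes dropped from 1221 to 470.

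**Figure D4:**
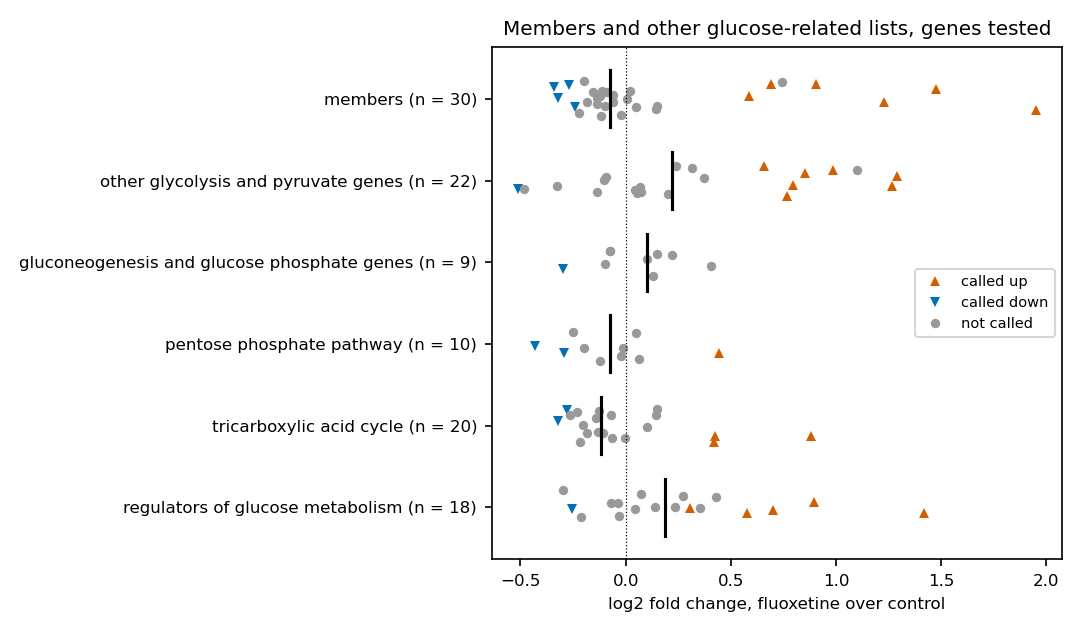
Log2 fold change of fluoxetine over control for the tested genes of the 30 members and of 5 other lists, with triangles for genes called up or down, grey circles for the rest and a black bar at each median (spread along the vertical axis within a list is for legibility only). Medians lie between -0.12 and 0.22, and every list has called genes.

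Further genes of glycolysis and pyruvate use had 7 rises and 1 fall among 22 tested. SLC16A4, a monocarboxylate transporter, was at 73.0 ± 1.05 CPM in control and 124 ± 4.87 CPM in fluoxetine libraries (log2 difference 0.77 ± 0.07, edgeR adjusted p = 0.00014). PDK4, the remaining pyruvate dehydrogenase kinase, was at 14.2 ± 1.31 CPM in control and 28.1 ± 0.682 CPM in fluoxetine libraries (log2 difference 0.99 ± 0.10, edgeR adjusted p = 0.000297). The phosphatases that act against these kinases moved the same way as PDK1 and PDK4. PDP2 rose by 0.85 ± 0.11 on the log2 scale (edgeR adjusted p = 0.000923), and PDP1, named after its value was seen, by 0.80 ± 0.15 (edgeR adjusted p = 0.00824, lost without fluoxetine replicate 1). LDHD, a mitochondrial dehydrogenase of D-lactate, rose by 1.27 ± 0.19 from 2.08 ± 0.349 CPM (edgeR adjusted p = 0.00254). The remaining called genes of this list were named after their values were seen. SLC2A6 rose by 1.29 ± 0.24 (edgeR adjusted p = 0.00765) and SLC2A13 by 0.66 ± 0.12 (edgeR adjusted p = 0.00749). HKDC1 was the fall, at -0.51 ± 0.13 (edgeR adjusted p = 0.0306). Their calls with single libraries left out are not given here.

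In the list of gluconeogenesis and glucose phosphate genes, 0 of 9 tested genes were called up by edgeR, with 1 higher at an unadjusted p under 0.05, and PGM2, a phosphopentomutase, was called down (log2 difference -0.30 ± 0.08). The pentose phosphate list had 1 rise and 2 falls among 10 tested genes. PRPS2 and PRPS1, which make the activated ribose for nucleotides, fell by 0.43 ± 0.07 and 0.29 ± 0.07 on the log2 scale, while H6PD, a glucose phosphate dehydrogenase of the endoplasmic reticulum, rose by 0.45 ± 0.11. The PGM2, PRPS1 and H6PD calls were each lost without control replicate 1, fluoxetine replicate 1 or fluoxetine replicate 3, and the PRPS2 call was kept in all 16 alternatives.

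Of 20 tested genes of the tricarboxylic acid cycle, 3 were called up and 2 down. IDH1, the cytosolic isocitrate dehydrogenase, stood out at 276 ± 9.79 CPM in control and 509 ± 11.6 CPM in fluoxetine libraries, a rise of 0.88 ± 0.07 on the log2 scale (edgeR adjusted p = 2.94e-05). OGDH, a subunit of the oxoglutarate dehydrogenase complex, and ACO1, the cytosolic aconitase, rose by 0.42 ± 0.07 and 0.42 ± 0.08, and FH, fumarase, fell by 0.32 ± 0.07. The ACO1 and FH calls were each lost without control replicate 2, fluoxetine replicate 1 or fluoxetine replicate 3, and FH also without control replicate 1. Among 18 regulators of glucose metabolism, 5 were called up and 1 down. PPARGC1A, a coactivator of mitochondrial genes, went from 8.14 ± 0.752 CPM in control to 21.8 ± 0.906 CPM in fluoxetine libraries (log2 difference 1.42 ± 0.11, edgeR adjusted p = 4.31e-05). EPAS1, the hypoxia-inducible factor subunit HIF-2α, rose by 0.90 ± 0.08, FOXO1, a forkhead factor inhibited by AKT, by 0.58 ± 0.11, and MLXIPL, the carbohydrate response factor ChREBP, by 0.70 ± 0.17 from 2.58 ± 0.241 CPM. The MLXIPL call was lost without control replicate 1, control replicate 2, fluoxetine replicate 1 or fluoxetine replicate 3 and at equal depth, while the other 3 kept theirs in all 16 alternatives. HIF1A, ARNT and MYC, also in this list, did not pass the test. Their log2 differences were 0.27 ± 0.09, 0.24 ± 0.10 and 0.08 ± 0.12 (edgeR adjusted p = 0.0625, 0.137 and 0.729).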

How the data were processed

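RNA sequencing (paired-end, 150 bases) gave 6 libraries of H460 cells, 3 control and 3 with 20 µM fluoxetine for 24 h, grouped from the sample labels. The authors deposited 1 table of raw read counts per gene and library, with GRCh38 coordinates. It also holds their own log2 fold changes, p-values and annotation, which were not used. The submitters' processing notes name fastp 0.20.0, HISAT2 2.1.0, HTSeq 0.10.0 and DESeq2 1.18.1 without settings, and whether counting used the strand is not given in the sources used here.

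Of 31762 rows, 1643 carry one of 126 symbols that stand on several rows, and all 126 repeat the same counts on each of their rows. One row per symbol was kept (30245 genes). The counts of the members did not change by this, although the PGAM1 call was lost with all rows kept. Totals were 15999067 to 27571727 counts per library. The limit of 3 counts covers counting error alone, since reads are not unique molecules.

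Tests were run on the counts with edgeR 4.0.16 in R 4.3.3 (glmQLFit, glmQLFTest, filterByExpr, TMM, no covariate, two-sided), with Benjamini-Hochberg adjustment over the 14674 genes kept. The script was tested on simulated data. Levels are TMM-scaled CPM, and TPM used the APPRIS principal transcript of GENCODE release 29. This length and the promoter window were chosen after seeing the data. Log2 isozyme ratios used a prior of 0.5 counts and an exact permutation test.

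The members, gene lists, isozyme pairs and tests were chosen with earlier results of these data known. All 30 members are accounted for. Values in every library are given for called members with a log2 fold change of at least 0.5 in size and their main isozyme counterparts, and also for some others. Of each other list, up to 4 called genes with the smallest p are named, with PDP1, SLC2A6, SLC2A13, HKDC1, HIF1A, ARNT and MYC in addition. Alternatives were DESeq2 1.42.0, limma-voom (limma 3.58.1), RLE or library size scaling, other filters, the replicate number as a block, equal depth, added pseudogene counts, a 2-fold or an unadjusted threshold, a prior of 2 counts, and leaving out each library. Keeping all deposited rows was added after seeing the data.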

Additional observations from a re-analysis of the deposited data

How the results depend on the processing

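Of the members, 6 were called up under every alternative to the fit, including each library left out, and 3 when a fold change of at least 2 was required. The number called down was 2 with library size alone, 0 with the 2-fold condition, and 0 to 6 when single libraries were left out, with 0 without control replicate 1 or 2 or fluoxetine replicate 1 or 3. Of the other glucose genes, of which 79 were tested, 3 were called up and 0 down at 2-fold (1.33% and 0.170% of all genes), 3 down at equal depth (5.57% of all genes) and 15 down at an unadjusted p under 0.05 (14.4% of all genes). Leaving out single libraries gave 9 to 21 up and 1 to 12 down. Over all genes, 470 to 1963 genes were then called up, and 0.943% to 12.1% of genes down. The cause was not tested, and each of these fits also had fewer libraries.

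Members near 0 changed sign. The log2 fold change of HK1 was -0.0035 with DESeq2, -0.0037 with RLE scaling, -0.018 without a filter and -0.031 to 0.036 with single libraries left out. That of PFKP was 0.0056 with library size alone and -0.10 to 0.017 with libraries left out, and that of ALDOA was -0.0034 without a filter and -0.076 to 0.081 with libraries left out. PFKL ranged from -0.21 to 0.027, and PDK3 was -0.018 at equal depth. The log2 ratio differences with libraries left out were -0.0027 to 0.27 for PFKM over PFKL, -0.023 to 0.11 for PFKP over PFKL, -0.025 to 0.34 for SLC16A1 over SLC16A3 and -0.22 to 0.44 for PDK2 over PDK1. The 8 pairs whose groups did not overlap kept their direction.

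Same-numbered control and fluoxetine libraries had correlations of their deviations from the group means of -0.05, 0.11 and 0.39, and not every library correlated best with its own number, so the numbers were not taken as pairs. With the replicate block, 6 members were called up and 4 down, and calls over all genes went from 2178 to 3768. Fluoxetine libraries held fewer counts than control libraries. PDK2, with 183 counts over the 6 libraries, had the largest SE of the members, 0.31 on the log2 scale.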
